A study of Rattus norvegicus with 9 samples.

Results

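Described here are 9 transcripts that fell in rat bone marrow-derived dendritic cells (BMDCs) after contact with total lipids (TLs) of Lactobacillus johnsonii N6.2: Cyp2s1, Fam3b, Aqp3, Gprc5c, Slco2b1, Tmem236, Trim9, Prrt1 and Etv1. These 9 genes, of 32545 in the count table, were chosen by their measured counts in these same libraries, as genes whose levels fell furthest with TLs. Their fall is therefore a description and is not tested. They were found by the Ensembl IDs that the study's list of differentially expressed genes (DEGs) pairs with the symbols. All 9 passed the filter on low counts, which left 12602 genes for the tests.

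BMDCs were grown from bone marrow of wild-type Sprague-Dawley rats aged 8 to 12 weeks with GM-CSF and human FLT3-L. Loosely adherent and nonadherent cells were taken on day 7, their purity was checked by the study with a CD11b/c antibody, and 1000000 per well were stimulated for 6 h. The groups were TLs at 600 ng/mL in PBS, the synthetic glycolipid α-GalCer (KRN700) at 100 ng/mL in DMSO diluted with PBS, and the vehicle control of DMSO and PBS. The solvent of TLs for this experiment is given by the labels and the study's methods, and the make-up of the vehicle control by the labels. With these solvents, TLs and the absence of DMSO cannot be told apart in these libraries. The lipid vehicle that the methods describe, after the fractionation assays, also held ethanol. Each group had 3 poly(A) RNA-seq libraries, from what the paper calls independent assays. How many animals gave each culture is not given in the sources used here, so the spread may be partly technical.

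The libraries held 15190820 to 20591105 counts. A level is given as counts per 1000000 (CPM) at the TMM-normalized library size, and 3 counts, which a count of 0 allows, correspond to 0.146 to 0.197 CPM by total count. The first principal component, with 54.1% of the variance, held the 3 TL libraries between 44.8 and 45.6 and the 6 others between -25.1 and -20.8. Replicate 2 of the vehicle control stood apart on the second component (9.72%), at -32.6 against 14.9 and 15.6 for the other vehicle libraries, so results against the vehicle control are also given without it. Itgax, which encodes CD11c of dendritic cells, was at 457 ± 25.4 CPM (SD, n = 3) with the vehicle control, 396 ± 24.2 with α-GalCer and 666 ± 20.8 with TLs. The other dendritic cell markers that could be looked up did not all share this direction and are given beside the marker lists.

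The 9 genes encode proteins of unlike roles. CYP2S1 is a cytochrome P450 enzyme, and its gene is known in human and mouse as a target of the aryl hydrocarbon receptor (AhR), a ligand-activated transcription factor. FAM3B, also called PANDER, is a secreted cytokine-like protein of pancreatic islets. AQP3 is a membrane channel for water and glycerol, SLCO2B1 carries organic anions into cells, and GPRC5C is an orphan G protein-coupled receptor. TMEM236 is a membrane protein. TRIM9 is a ubiquitin ligase known from mouse neurons, PRRT1 accompanies glutamate receptors of the AMPA type in rodent brain, and ETV1 is an ETS transcription factor of the PEA3 group that acts downstream of ERK kinase signalling.

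Promoters were looked at because the transcripts fell together. RefSeq sequences of build GRCr8, reaching from 250 bases before to 50 after the start, were matched by symbol for 6 of the 9 genes: Cyp2s1, Aqp3, Slco2b1, Tmem236, Trim9 and Etv1. The promoters of the gene with the most counts, of the gene with the most kinds of match and of the gene that fell furthest are shown, on the strand of the gene. Capitals mark GC boxes (GGGCGG or its reverse complement) and, in Aqp3, also a TATA box (TATAAA) and an AhR core (GCGTG, here on the other strand). Tmem236 held none of the motifs searched and has no capitals.
Cyp2s1, chr1:90453024-90453323, minus strand: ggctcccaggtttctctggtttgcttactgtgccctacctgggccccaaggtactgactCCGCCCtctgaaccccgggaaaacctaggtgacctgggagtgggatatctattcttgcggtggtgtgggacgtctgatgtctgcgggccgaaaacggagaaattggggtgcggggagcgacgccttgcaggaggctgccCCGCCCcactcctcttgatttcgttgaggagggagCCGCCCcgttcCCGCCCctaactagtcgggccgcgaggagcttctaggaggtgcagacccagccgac
Aqp3, chr5:61040634-61040933, minus strand: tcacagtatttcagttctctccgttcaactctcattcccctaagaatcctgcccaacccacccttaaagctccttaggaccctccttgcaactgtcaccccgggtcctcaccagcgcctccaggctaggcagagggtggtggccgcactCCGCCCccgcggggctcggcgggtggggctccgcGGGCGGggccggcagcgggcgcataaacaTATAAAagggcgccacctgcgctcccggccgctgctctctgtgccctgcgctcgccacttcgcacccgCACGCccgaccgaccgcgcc
Tmem236, chr17:82074770-82075069, plus strand: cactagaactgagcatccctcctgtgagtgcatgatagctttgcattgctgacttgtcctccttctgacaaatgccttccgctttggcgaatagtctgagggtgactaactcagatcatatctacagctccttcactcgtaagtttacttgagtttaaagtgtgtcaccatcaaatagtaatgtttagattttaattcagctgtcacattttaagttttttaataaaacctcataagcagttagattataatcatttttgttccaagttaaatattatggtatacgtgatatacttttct

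The GC box was found in 4 of the 6 promoters (Cyp2s1, Aqp3, Trim9 and Etv1), against 33.1% of all 33469 promoters of the same length. Cyp2s1 had 4 GC boxes, and the 2 in Etv1 overlapped. Aqp3 alone of the 6 had the TATA box, which 14.2% of all promoters held, and the AhR core, which 29.7% held. The PU.1 motif GAGGAAGT (2.42% of all promoters), the ETS motif CCGGAAGT (3.81%), the AP-1 motif TGACTCA (4.63%), the E-box CACGTG (6.42%) and the NF-kB motif (4.18%) were in none of the 6, on either strand. Base composition was spread widely: 35.7% of the bases were G or C in Tmem236, 52.0% in Etv1, 56.7% in Slco2b1, 62.7% in Cyp2s1, 67.3% in Aqp3 and 72.0% in Trim9, against a median of 51.7% over all promoters. The CpG dinucleotide occurred 4 times in Tmem236 and 31 times in Trim9, with a median of 7 over all promoters. A match is a description of the letters only. No searched motif was common to the 6 windows, and the other 3 genes were not searched.

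**Figure D1:**
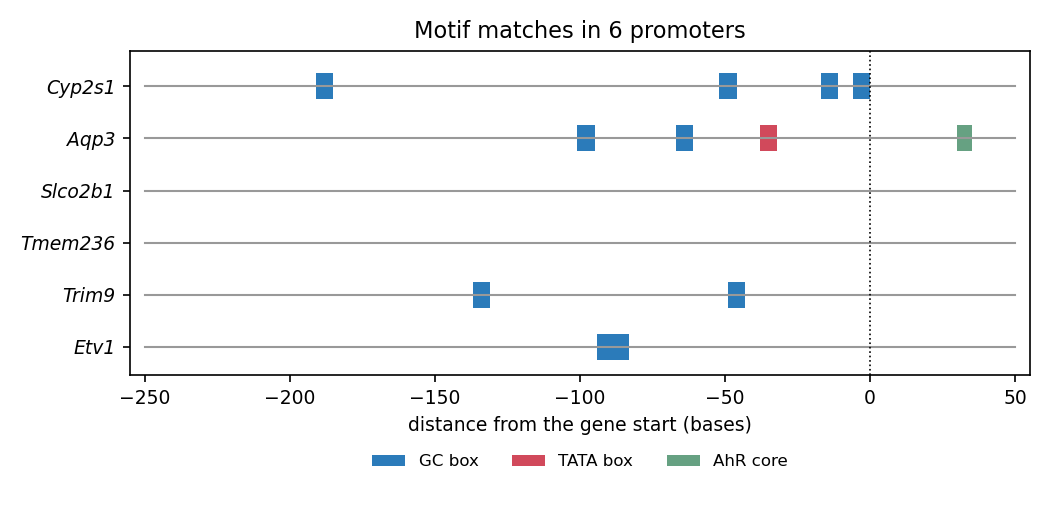
Motif matches in the promoters of 6 of the transcripts, on both strands, by distance in bases from the gene start (dotted line), with GC boxes in blue, the TATA box in red and the AhR core in green. Cyp2s1 shows 4 GC boxes and Aqp3 the only TATA box, while Slco2b1 and Tmem236 show no match.

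All 9 transcripts were lower in each TL library than in any library of both other groups. Against the vehicle control, 10.4% of the mean level was left for Tmem236 and 25.1% for Gprc5c, the ends of the range. The median log2 fold change of the 9 was -2.48, beside -0.02 over all genes tested. A gene was called with edgeR where its adjusted p was below 0.01 and its log2 fold change beyond 0.3 in either direction. All 9 were called lower against the vehicle control, where 9.67% of all genes tested were, and all 9 against α-GalCer, where 10.5% were. Since the rule used the first contrast, and the contrasts share the TL libraries, nothing is read from these counts. TL libraries lay below all vehicle libraries for 23.9% of genes tested, and below all α-GalCer libraries for 26.2%. In bulk RNA, fewer cells of a type and less RNA per cell cannot be told apart.

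**Figure D2:**
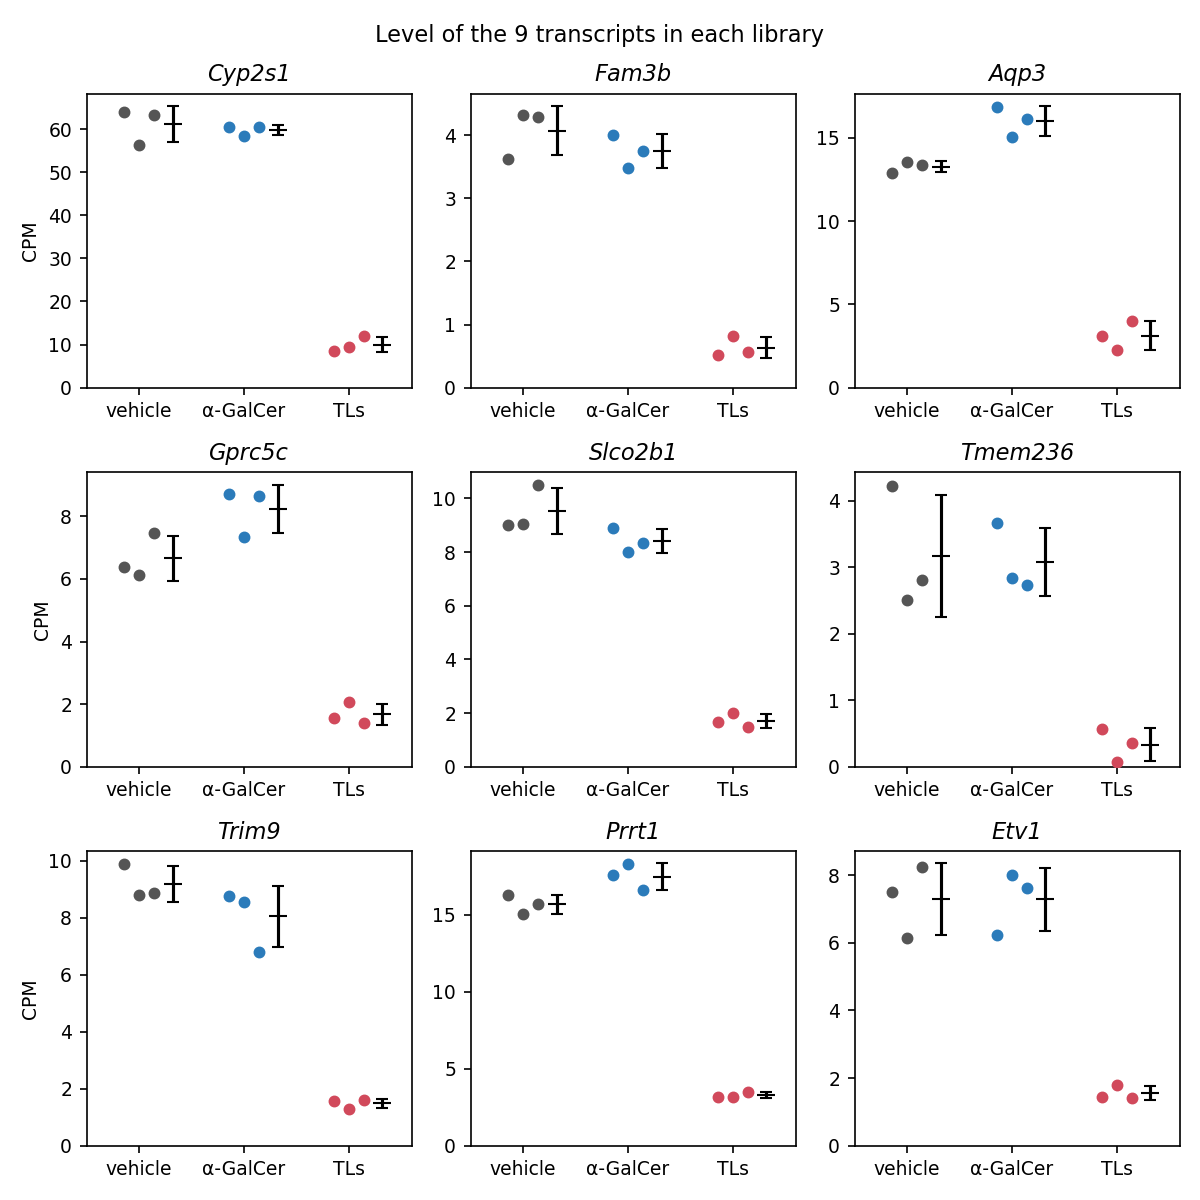
Level of each transcript in CPM (y axis from 0) in the 3 libraries of each group, with the mean and SD beside the points. The TL points lie below all others in every panel: the lowest vehicle library is 2.98 (Gprc5c) to 5.46 (Trim9) times the highest TL library.

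Of the enzyme and the secreted protein, Cyp2s1 had the most counts of the 9, without correction for length. Cyp2s1 (ENSRNOG00000020743) was at 63.9, 56.4 and 63.3 CPM in the vehicle libraries, at 60.4, 58.3 and 60.4 with α-GalCer, and at 8.59, 9.32 and 11.9 with TLs. The TL level, 9.94 ± 1.75 CPM (SD, n = 3), was 16.2% of the vehicle level, a log2 fold change of -2.63 ± 0.11 (SE). Replicate 3 was the highest of the TL libraries, and the coefficient of variation (CV) there, 17.6%, stood beside 7.97% from counting alone. The study also followed this gene by qRT-PCR as a marker of the TL response, with the primers shown here because they mark the amplified part of the transcript. In the study's fractionation assays, lipids and vehicle both held DMSO and ethanol, and the paper reports lower Cyp2s1 with TLs and with the phospholipid fraction. Those assays were not analysed here.
Cyp2s1 forward: accctcaagtccaaaagcgtg
Cyp2s1 reverse: aacagcatccgtgtaagggag

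Fam3b (ENSRNOG00000001962) was at 3.63, 4.31 and 4.28 CPM with the vehicle control, 4.01, 3.48 and 3.76 with α-GalCer, and 0.517, 0.823 and 0.561 with TLs. The TL values rest on 10, 12 and 8 counts. Against the vehicle control 15.5% was left, a log2 fold change of -2.69 ± 0.23. The TL libraries did not overlap with the others, and their CV of 26.1% was below the 31.6% that counting alone gives.

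Among the membrane transporters, Aqp3 differed most between its TL libraries, while Slco2b1 was even. Aqp3 (ENSRNOG00000009797) was at 12.9, 13.6 and 13.4 CPM in the vehicle libraries and at 3.10, 2.26 and 3.99 with TLs, a log2 fold change of -2.09 ± 0.17. Its TL CV was 27.8%, beside 14.1% from counting alone. With α-GalCer the water and glycerol channel was at 16.8, 15.0 and 16.1 CPM, above every vehicle library, so that its difference from TLs was larger there (-2.36 ± 0.17). Slco2b1 (ENSRNOG00000017976) was at 9.01, 9.03 and 10.5 CPM with the vehicle control, at 8.89, 7.998 and 8.34 with α-GalCer, and at 1.66, 1.99 and 1.47 with TLs. For this organic anion transporter 17.9% of the vehicle level was left, and the log2 fold change was -2.48 ± 0.16.

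Gprc5c, the orphan receptor, fell least of the 9, and Tmem236 fell furthest with the least precision. Gprc5c (ENSRNOG00000003144) was at 6.38, 6.13 and 7.48 CPM with the vehicle control, at 8.72, 7.35 and 8.66 with α-GalCer, and at 1.55, 2.06 and 1.40 with TLs. Its log2 fold change was -1.995 ± 0.19 relative to the vehicle control and -2.30 ± 0.19 relative to α-GalCer. Tmem236 (ENSRNOG00000037982) was at 4.21, 2.50 and 2.80 CPM in the vehicle libraries and at 3.66, 2.83 and 2.72 with α-GalCer. With TLs it was at 0.569, 0.0685 and 0.350 CPM, from 11, 1 and 5 counts, so replicate 2 was below the 3-count level. Its log2 fold change of -3.17 ± 0.44 became -3.88 without TL replicate 1 and -2.73 without TL replicate 2. The TL groups of both genes stayed below every other library.

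The ubiquitin ligase gene Trim9 (ENSRNOG00000007031) was at 9.89, 8.80 and 8.85 CPM with the vehicle control, at 8.77, 8.54 and 6.81 with α-GalCer, and at 1.55, 1.30 and 1.61 with TLs. Its log2 fold change was -2.62 ± 0.17, and its lowest vehicle library was 5.46 times its highest TL library, the widest gap of the 9. Prrt1 (ENSRNOG00000000433) was at 16.3, 15.0 and 15.7 CPM with the vehicle control, at 17.5, 18.3 and 16.6 with α-GalCer, and at 3.16, 3.15 and 3.50 with TLs. This synaptic protein gene had the smallest TL CV of the 9, 6.18%, and a log2 fold change of -2.26 ± 0.11. Etv1 (ENSRNOG00000006867), the transcription factor gene, was at 7.49, 6.13 and 8.23 CPM with the vehicle control, at 6.22, 7.998 and 7.63 with α-GalCer, and at 1.45, 1.78 and 1.40 with TLs. Its log2 fold change of -2.24 ± 0.19 left 21.2% of the vehicle level, and the same percentage of the α-GalCer level.

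By fold change the order from the furthest fall was Tmem236, Fam3b, Cyp2s1, Trim9, Slco2b1, Prrt1, Etv1, Aqp3 and Gprc5c. Neighbours in this order differed by less than the sum of their SEs, so the order is a description. The 9 are not the full lower end of the table. Of the genes called lower, 46 fell at least as far as Gprc5c, among them the 9, 29 others with a symbol and 8 without one. Just beyond Gprc5c by value was Prickle2 at -1.996, and just short of it was Gpr155 at -1.994. Without vehicle replicate 2 the log2 fold changes of the 9 ran from -3.31 (Tmem236) to -2.05 (Gprc5c).

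**Figure D3:**
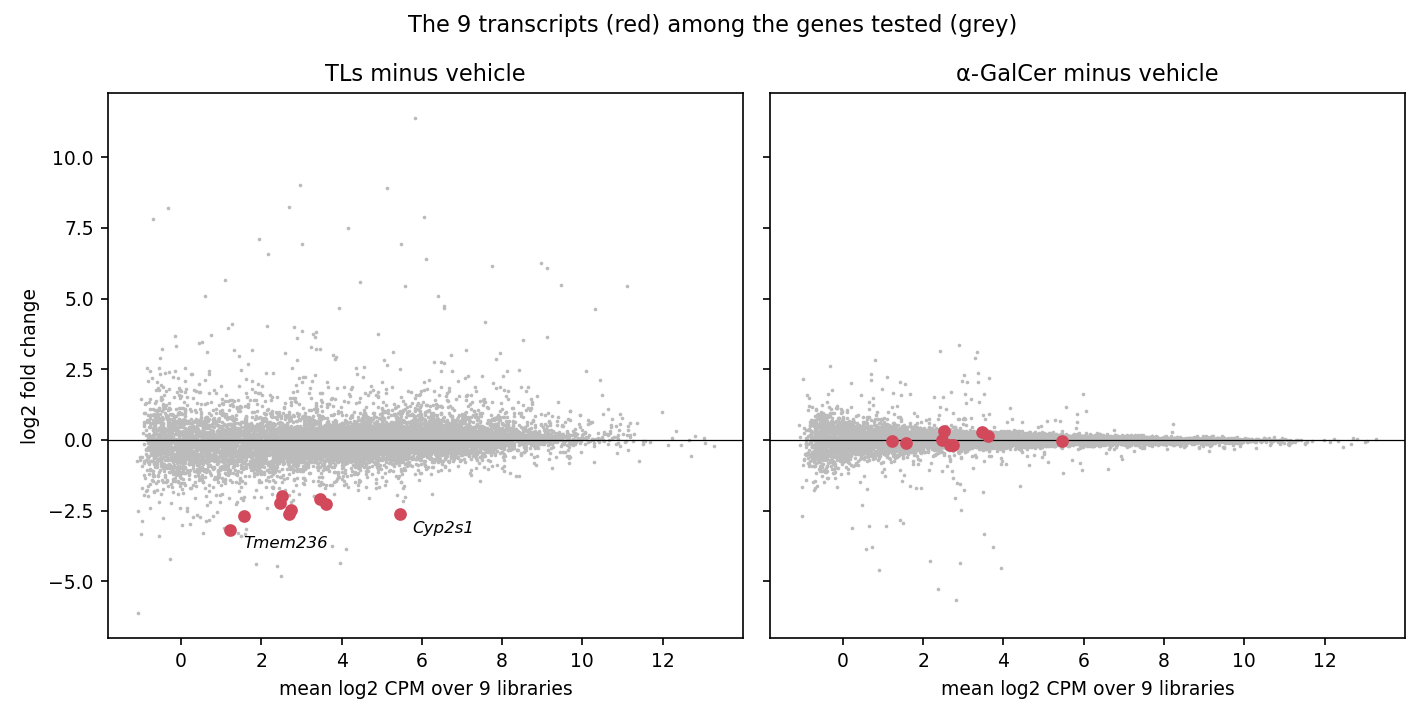
Log2 fold change (y axis) against the mean log2 CPM over the 9 libraries (x axis) for the 12602 genes tested (grey) and the 9 transcripts (red), for TLs minus vehicle (left) and α-GalCer minus vehicle (right). On the left the 9 lie between -3.17 (Tmem236) and -1.995 (Gprc5c), and on the right between -0.19 and 0.31.

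The comparison of α-GalCer with the vehicle control asks whether the 9 also moved with a known lipid antigen, and the rule did not use it. It shares the vehicle libraries with the rule, and the low values against α-GalCer may have entered the choice of members. None of the 9 was called, as none of the genes tested was (0% of 12602). At an unadjusted p under 0.05, edgeR gave 0 of the 9 and 2.94% of all genes tested (370 of 12602). Limma-voom gave 2 of the 9 (Aqp3 and Gprc5c) and 366 of 12602 genes, and DESeq2 gave 0 of the 9 and 311 of 18596. An edgeR fit to the libraries of the 2 groups alone gave 1 of the 9 (Aqp3, unadjusted p = 0.0304) and 254 of 12387. With vehicle replicate 2 left out, edgeR gave 0 of the 9 and 1472 of 12786, a larger share of all genes than with it. The median log2 fold change of the 9 was -0.04, beside 0.00 over all genes tested, with 4 of the 9 positive.

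Gprc5c had the largest difference, 0.31 ± 0.17 (SE) on the log2 scale, with an unadjusted p of 0.0937 and an adjusted p of 1.00 (edgeR). Its 95% interval allows a level of 0.958 to 1.59 times that of the vehicle control. Aqp3 differed by 0.27 ± 0.16 (interval 0.948 to 1.53 times) and Prrt1 by 0.16 ± 0.10 (0.956 to 1.30 times). For Aqp3 and Prrt1 all 3 α-GalCer libraries were above all vehicle libraries, which held for 3.35% of all genes tested. Trim9 (-0.19 ± 0.15, interval 0.698 to 1.10 times) and Slco2b1 (-0.18 ± 0.14, 0.711 to 1.10 times) lay below without overlap, as 3.4% of all genes did, but the gap was 1.00 times for Trim9 and 1.01 times for Slco2b1. For these 4 the exact permutation test of log2 CPM gave p = 0.1 (two-sided), the smallest that 3 against 3 libraries allow. The adjusted p of each of the 9 rounded to 1.00.

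Cyp2s1 was the most closely measured in this comparison, with a difference of -0.04 ± 0.10 and an interval of 0.838 to 1.14 times the vehicle level. Fam3b (-0.12 ± 0.19, interval 0.688 to 1.23 times) and Etv1 (0.00 ± 0.17, 0.772 to 1.30 times) overlapped between the groups. Tmem236 (-0.05 ± 0.34) had the widest interval, 0.576 to 1.63 times. Without vehicle replicate 2 the difference was 0.29 for Aqp3, 0.25 for Gprc5c, 0.13 for Prrt1, -0.22 for Trim9 and -0.22 for Slco2b1, again with none called.

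**Figure D4:**
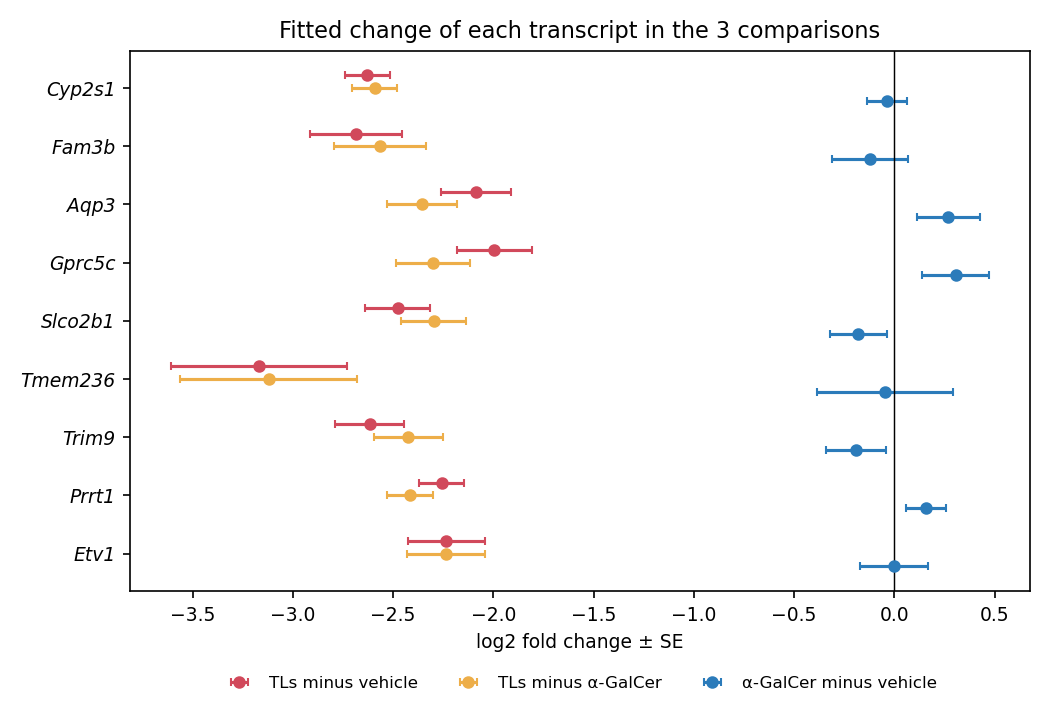
Fitted log2 fold change with its SE for each transcript in the 3 comparisons, TLs minus vehicle in red, TLs minus α-GalCer in yellow and α-GalCer minus vehicle in blue. Both TL comparisons lie at or under -1.995, and the blue points lie between -0.19 (Trim9) and 0.31 (Gprc5c).

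The spread within groups set the precision of these values. Over the 9, the CV of CPM ran from 2.00% to 16.7% with α-GalCer, from 2.68% to 28.9% with the vehicle control and from 6.18% to 76.2% with TLs, with Tmem236 the highest in each group. Vehicle replicate 2 was the lowest library of its group for 6 of the 9. α-GalCer replicate 1 was above its group mean for 8 of the 9.

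**Figure D5:**
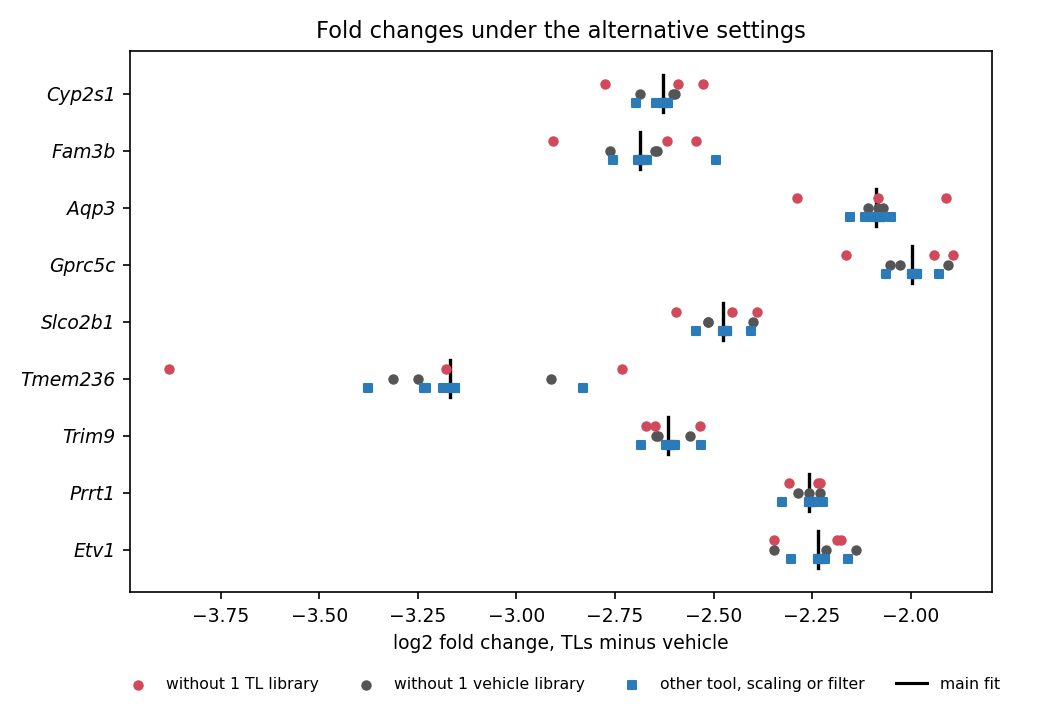
Log2 fold change of TLs minus vehicle for each transcript (x axis) under the alternative settings, with the value of the fit described above as a black line. Red points leave out 1 TL library, grey points leave out 1 vehicle library and blue squares use another tool, scaling or filter. Tmem236 spans -3.88 to -2.73, while Prrt1 stays between -2.33 and -2.22.

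Related genes could be looked up only where the study's list of DEGs against the vehicle control pairs an ID with a symbol, so the values found are those of genes already selected for a change with TLs, and their counts carry no weight. Of the 51 listed genes of the CYP1, CYP2 and CYP4 families, 3 beside Cyp2s1 had an ID. Cyp4f5 and Cyp4v3 were lower with TLs by log2 values of -1.39 ± 0.22 and -0.57 ± 0.08, and Cyp1b1 was higher (0.98 ± 0.10). The median of the 3 was -0.57, beside -0.20 over the tested genes with a symbol and -0.02 over all genes tested. Of 14 listed AhR pathway genes, the 4 with an ID were all higher with TLs, opposite in sign to Cyp2s1. Ahr itself had a level of 23.5 ± 4.48 CPM (SD, n = 3) in vehicle libraries and 41.1 ± 2.57 in TL libraries, a log2 fold change of 0.81 ± 0.12. Tiparp, an AhR target that represses the receptor, differed by 0.93 ± 0.11 and Nqo1, a quinone reductase, by 0.76 ± 0.07. The median over the 4 was 0.87.

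Of 19 listed PEA3 factors and ERK feedback genes, 8 beside Etv1 had an ID, of which 5 were called higher and 3 lower with TLs (median 1.77). Over all genes tested 9.77% were called higher and 9.67% lower, but only genes with a symbol could be looked up. Of the 1839 tested genes with a symbol, 716 were called higher and 693 lower, so the counts of the list carry no weight. The ERK feedback and early response genes Ier3 (2.26 ± 0.08), Fosl1 (1.88 ± 0.11), Spry2 (1.83 ± 0.14) and Phlda1 (1.71 ± 0.08) were higher, and the growth genes Ccnd1 (-0.98 ± 0.06) and Myc (-0.72 ± 0.06) lower, on the log2 scale. Etv5, the PEA3 factor related to Etv1 and named after its value was seen, was at 59.5 ± 4.15 CPM in the vehicle libraries and 39.6 ± 1.07 with TLs, a log2 fold change of -0.59 ± 0.08. Spry1, the remaining gene of the list with an ID, went the other way, from 2.54 to 15.0 CPM (2.56 ± 0.21). Of 15 listed SLCO transporters, Slco3a1 was tested and was higher (0.39 ± 0.07), in the direction opposite to Slco2b1. Slco2a1 was under the filter on low counts, as was Mid1 of the class I TRIM ligases to which Trim9 belongs. No listed gene of the FAM3, aquaporin, GPRC5 or PRRT families other than the members had an ID. With α-GalCer against the vehicle control none of these list genes was called.

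Cell type markers moved in the same libraries, and their part in the fall of the 9 was not tested. Of 12 dendritic cell markers 4 had an ID (Itgax, Ciita, Irf8 and Ccr7), with a summed level of 831 to 893 CPM with the vehicle control, 770 to 841 with α-GalCer and 1059 to 1106 with TLs. The list was split, with 2 called higher with TLs, Itgax (log2 0.54 ± 0.06) and Ccr7 (0.89 ± 0.07), and 2 called lower, Ciita (-0.38 ± 0.09) and Irf8 (-0.30 ± 0.07). Of 12 monocyte or macrophage markers 7 had an ID, summing to 2028 to 2115, 1993 to 2057 and 3458 to 3494 CPM in the same order. The rise of the sum was that of Cd14, without which the other 6 summed to 1535 to 1685 CPM with the vehicle control, 1585 to 1615 with α-GalCer and 1043 to 1070 with TLs. In that list Cd14 was higher with TLs (log2 2.43 ± 0.08) and Mrc1 lower (-1.27 ± 0.07), and 3 of the 7 were called higher and 4 lower, with a median of -0.59. Single markers with an ID were Mpo of neutrophils (479 to 536 CPM with the vehicle control, 427 to 435 with TLs), Gata2 of mast cells and basophils (16.8 to 18.9 and 9.62 to 11.6) and the epithelial cadherin Cdh1 (9.82 to 11.6 and 2.90 to 4.18). Ptcra of plasmacytoid dendritic cells had 0 counts in the TL libraries and at most 0.163 CPM in the others. No listed B cell, T or NK cell, erythroid or stromal marker had an ID.

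For the pattern over the 9 libraries, the genes closest to each member were found by Pearson's r of log2 CPM, as a description: with 3 libraries far from the other 6, r follows mainly that step. Only genes with a symbol in the study's list of DEGs and a mean log2 CPM of at least 1 were searched, from 1839 of the 12602 genes tested. Those genes were already selected for a change with TLs, and closer genes outside them were not looked for. Between the members themselves r ran from 0.892 to 0.996 over the 36 pairs. Cyp2s1 was closest to Prickle2 (r = 0.996), of planar cell polarity, and to the lectin receptor gene Clec4a (0.996). Fam3b was closest to Dhcr7 (0.995), the last enzyme of cholesterol synthesis, and Ppt2 (0.995), a lysosomal thioesterase. Aqp3 was closest to Lfng and Ctdspl (both 0.994), and Gprc5c to the replication helicase gene Mcm2 (0.993) and the membrane protease gene St14 (0.992). Slco2b1 was closest to Gask1b (0.995) and Ptgs1 (0.994), which encodes cyclooxygenase-1. Tmem236 was closest to the purine receptor gene P2ry1 (0.989) and to Naa40 (0.986), and Trim9 to Mcm3 (0.998) and Slc44a2 (0.997). Prrt1 was closest to Gpnmb and Cerk (both 0.997), and Etv1 to Rin2 (0.996) and Gask1b (0.994). The falls of these genes differed in size, from -0.21 for Lfng to -3.32 for Clec4a on the log2 scale.

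Positions in the genome were looked up by name in RefSeq GRCr8, which is not the build of the counts, so only the order of genes is used. Of 54 protein-coding neighbours, 3 on each side, 9 had a value, and their names were chosen after the values were seen. A neighbour could be looked up only where the study's list of DEGs holds it, so these were already selected for a change with TLs (7 called lower and 1 higher), and their values say nothing about the other neighbours. Prrt1 overlaps Ppt2 in that annotation. Since no setting for strand or shared reads is given for the counts, and the library kit does not mark strand, reads from the overlap cannot be told apart. Ppt2 fell by 1.07 ± 0.09 on the log2 scale with TLs, Egfl8 on the other side fell by 1.503 ± 0.28, and Atf6b further along was at -0.03 ± 0.06. Slco2b1 overlaps an olfactory receptor gene with no value here, and Cyp2s1 a pseudogene. Next to Slco2b1, Tpbgl fell from 17.9 to 4.75 CPM (-1.90 ± 0.12), and next to Tmem236, Mrc1 fell from 447 to 185 CPM. Near Cyp2s1, Axl, a receptor tyrosine kinase gene, was at -0.94 ± 0.06 and Hnrnpul1 at -0.36 ± 0.06, and Pygl beside Trim9 was at -0.50 ± 0.05. Scin, further along from Etv1, was higher by 3.84 ± 0.17. Cyp2s1 also lies near Cyp2b1 and Cyp2b2, other genes of the CYP2 family. How reads that map to more than 1 place were counted is not given in the sources used here.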

How the data were processed

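Raw counts per Ensembl gene ID were used as deposited. The authors made them from paired-end poly(A) reads (NEBNext Ultra kit) with fastp, HISAT2 on Rnor_6.0 and featureCounts; versions, annotation and settings are not given in the sources used here. Their later normalization and test were not repeated, and their fold change and p-value columns, which compare TLs with the vehicle control, were not used.

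Counts were fitted with edgeR 4.0.16 (R 4.3.3): filterByExpr, TMM, and the quasi-likelihood F-test over the 9 libraries with group as the only term and Benjamini-Hochberg adjustment. SE was taken as the size of the log2 fold change over the root of F. The thresholds for calls follow the study's methods. Intervals use 95%. The script was tested on simulated data. Alternatives used DESeq2 1.42.0 and limma 3.58.1.

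The members, lists and tests were chosen with earlier results of these data known. Symbols came from the study's list of DEGs (1981 IDs, from a copy with 1999 rows). The paper reports more DEGs than this copy holds, so a gene without an ID here may still be in the full list. Genes named are the members, the 2 genes of highest r with each member (with a symbol and a mean log2 CPM of at least 1), and from each list the genes called against the vehicle control, or the 6 of smallest adjusted p where more than 6 were called. Etv5, Spry1 and the neighbours in the genome were named outside this rule.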

Additional observations from a re-analysis of the deposited data

How the results depend on the processing

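The 9 transcripts were called lower in both TL comparisons, and none was called for α-GalCer minus vehicle, under every alternative run, including each library left out (9, 9 and 0), except that a minimum of 10 counts in every library left 7 of them to test, without Fam3b and Tmem236. For all genes, calls ranged from 1785 to 2706 (TLs minus vehicle, 2450 with all libraries), from 1886 to 2194 (TLs minus α-GalCer, 2562) and from 0 to 1 (α-GalCer minus vehicle) with 1 library left out. Between α-GalCer and the vehicle control, DESeq2 called 2 genes, no filter called 2 and the fit without vehicle replicate 2 called 1; the cause was not tested. Upper quartile scaling moved the split against the vehicle control from 1231 higher and 1219 lower to 1002 and 1614, and against α-GalCer from 1241 and 1321 to 1000 and 1742. With the replicate number as a block, 2256, 2332 and 0 genes were called. Deviations of same-numbered libraries from their group means correlated between -0.062 and 0.1247. With 3 libraries per group, such values cannot show whether same-numbered libraries shared an assay. The differences of a pair of genes near 0 between α-GalCer and the vehicle control changed sign on the log2 scale: Etv1 was at -0.00199 with RLE scaling, -0.00109 with DESeq2, -0.00877 with no filter, -0.00284 with at least 10 counts, -0.00408 with the replicate block and -0.00387 with the libraries of the 2 groups only, and from -0.11 to 0.10 with 1 library left out; Tmem236 was at -0.19 to 0.21 with 1 library left out. Tmem236 was the only 1 of the 9 whose fold with TLs moved by over 1.5 times, to -3.88 on the log2 scale without TL replicate 1. Depth limits Tmem236 and Fam3b most, with 17 and 30 counts over the TL libraries.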
